A study of Homo sapiens with 16 samples.

Results

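The human beta-globin genes HBB, HBD, HBG1, HBG2 and HBE1 lie next to each other on chromosome 11, and the chromatin over them was described here in fibroblasts. The 5 genes had 20 of the 272902 windows of 2000 bp in the table of transcription start sites (TSS), taken as every window on chromosome 11 that carries 1 of the 5 symbols. Of these, 17 had distinct coordinates, and they fell into 8 separate stretches because windows of neighbouring transcripts overlap and share reads. In the 110 kb of chromosome 11 from position 5200000 on, 1 of the 16092 merged peak regions was found. The cluster was chosen by measured values, namely the input reads at HBB in 10% serum. These stood out from wild type in ΔLEO1 replicate A and not in replicate B. The contrast of ΔLEO1 with wild type inputs in 10% serum is thus given as a description with no test.

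The human beta-globin cluster holds genes that are used one after another in development, in the order in which they lie on the chromosome. HBE1 encodes the embryonic epsilon chain, HBG1 and HBG2 encode the nearly identical fetal gamma chains, HBD encodes the delta chain of a minor adult haemoglobin, and HBB encodes the beta chain of the main adult haemoglobin. The genes are transcribed in red cell precursors under a shared distal control region and are silent in other cell types. Dimethylation of lysine 9 of histone H3 (H3K9me2) is a mark of silent chromatin that the enzymes EHMT1 and EHMT2 place.

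ChIP and input DNA came from BJ-5ta, an established human foreskin fibroblast line that expresses telomerase (hTERT). The cells were wild type or carried a CRISPR/Cas9 knockout of LEO1, a subunit of the PAF1 complex, which the labels write as Leo1 and which was 1 clone made with guides to LEO1. Both genotypes were kept either in 10% serum, where they proliferate, or in 0.1% serum for 10 days, where they enter quiescence. The labels call the antibody H3 and the study names H3K9me2, so that these libraries are called ChIP here. There were 16 libraries, with replicates A and B of ChIP and of input for each genotype and serum. The labels do not say whether A and B came from separate cultures, and the p-values then measure only the spread between these samples.

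The ΔLEO1 ChIP library A in 10% serum held 54 reads over all TSS windows and 0 reads in every window of the cluster, and it was left out. The other 7 ChIP libraries held 2153836 to 3696942 reads in TSS windows and the 8 inputs 3267811 to 9238282, and the window over the start of LEO1 held 8 to 21 ChIP reads and 16 to 53 input reads in these libraries. The study tested the clone by PCR for loss of DNA between exons 1 and 2 of LEO1. Whether the lost DNA reaches into this window is not given, so its reads do not check the knockout. Levels are given as CPM, the reads of a window scaled to a common library size after TMM normalization (a trimmed mean over all windows), for windows of equal length, so that genes can be compared with each other. At the LEO1 window the inputs ran from 3.63 to 5.47 CPM in wild type and from 2.71 to 4.81 CPM in ΔLEO1, which overlap.

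Of the 5 genes, HBD had an entry in the RefSeq promoter table (GRCh38.p14), at chr11:5234434-5234733 on the minus strand, 250 bases before to 50 after the start. It lies inside the main HBD window, where ChIP reads were counted, and is shown as the kind of sequence under these windows. Capitals mark matches to 3 of the 4 motifs searched on both strands, namely the CCAAT box, the CACCC box, the TATA-like ATAAA and the GATA site, the last read as TATC where it lies on the opposite strand.

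HBD: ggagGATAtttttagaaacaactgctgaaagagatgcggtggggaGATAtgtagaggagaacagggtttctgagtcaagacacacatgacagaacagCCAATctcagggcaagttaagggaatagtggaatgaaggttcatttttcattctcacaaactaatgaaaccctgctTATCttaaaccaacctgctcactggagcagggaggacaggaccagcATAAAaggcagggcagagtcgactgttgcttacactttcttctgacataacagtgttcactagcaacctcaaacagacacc

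CCAAT began at -153 and ATAAA at -31 relative to the start, on the strand of the gene. GATA began at -246 and -205 on that strand and at -77 on the opposite one. CACCC was not found in these 300 bases. Of 35116 promoters of this length, 34.6% held CCAAT, 59.9% CACCC, 34.9% ATAAA and 49.7% GATA on either strand. These are matches of letters and no measure of binding.

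For each gene the window centred nearest to the listed gene start was its main window. In HBB, at chr11:5226071-5228071, the wild type ChIP libraries A and B held 15.2 and 9.78 CPM in 10% serum and 9.42 and 7.67 CPM in 0.1% serum. The ΔLEO1 ChIP libraries held 10.9 CPM in 10% serum (library B) and 10.5 and 12.5 CPM in 0.1% serum. All 7 were above the wild type inputs, at 4.11 and 3.40 CPM in 10% serum and 4.98 and 5.16 CPM in 0.1% serum, and above the ΔLEO1 inputs in 0.1% serum, at 4.85 and 3.73 CPM. The ΔLEO1 inputs in 10% serum held 28.5 CPM in library A, above all 7 ChIP libraries, and 4.29 CPM in library B, below them.

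At HBD, chr11:5233483-5235483, the ChIP libraries held 6.57 and 7.68 CPM in wild type 10% serum, 6.91 and 8.82 CPM in wild type 0.1% serum, 6.94 CPM in ΔLEO1 10% serum and 6.88 and 6.45 CPM in ΔLEO1 0.1% serum. The 8 inputs ran from 2.94 to 5.03 CPM and did not overlap with the ChIP libraries. HBD is transcribed at a low rate even in adult red cells, and its ChIP levels lay close together across genotype and serum.

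The fetal genes differed from each other. At HBG1, chr11:5248857-5250857, the ChIP libraries held 2.47 and 4.54 CPM in wild type 10% serum, 2.2 and 1.53 CPM in wild type 0.1% serum, 2.97 CPM in ΔLEO1 10% serum and 4.13 and 2.82 CPM in ΔLEO1 0.1% serum. Every one of them lay below every ChIP library at the main windows of the other 4 genes. The inputs at HBG1 were low as well, from 1.44 to 4.81 CPM, and overlapped with its ChIP libraries.

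At HBG2, chr11:5253781-5255781, the ChIP libraries held 9.04 and 8.73 CPM in wild type 10% serum, 8.48 and 7.29 CPM in wild type 0.1% serum, 7.93 CPM in ΔLEO1 10% serum and 9.91 and 6.05 CPM in ΔLEO1 0.1% serum. The inputs ran from 2.53 to 5.02 CPM, below every ChIP library. HBG1 and HBG2 arose by duplication and share long stretches of sequence, and how reads that match both were assigned is not given in the sources used here, so their split is uncertain.

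At the embryonic gene HBE1, chr11:5268945-5270945, the ChIP libraries held 6.16 and 7.33 CPM in wild type 10% serum, 5.65 and 10.4 CPM in wild type 0.1% serum, 7.93 CPM in ΔLEO1 10% serum and 9.36 and 9.67 CPM in ΔLEO1 0.1% serum. The inputs ran from 2.48 to 6.61 CPM, the highest being ΔLEO1 input A in 10% serum, which lay above wild type ChIP library A in both sera. Apart from HBG1, the ranges of the ChIP levels of the 5 genes overlapped.

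**Figure D1:**
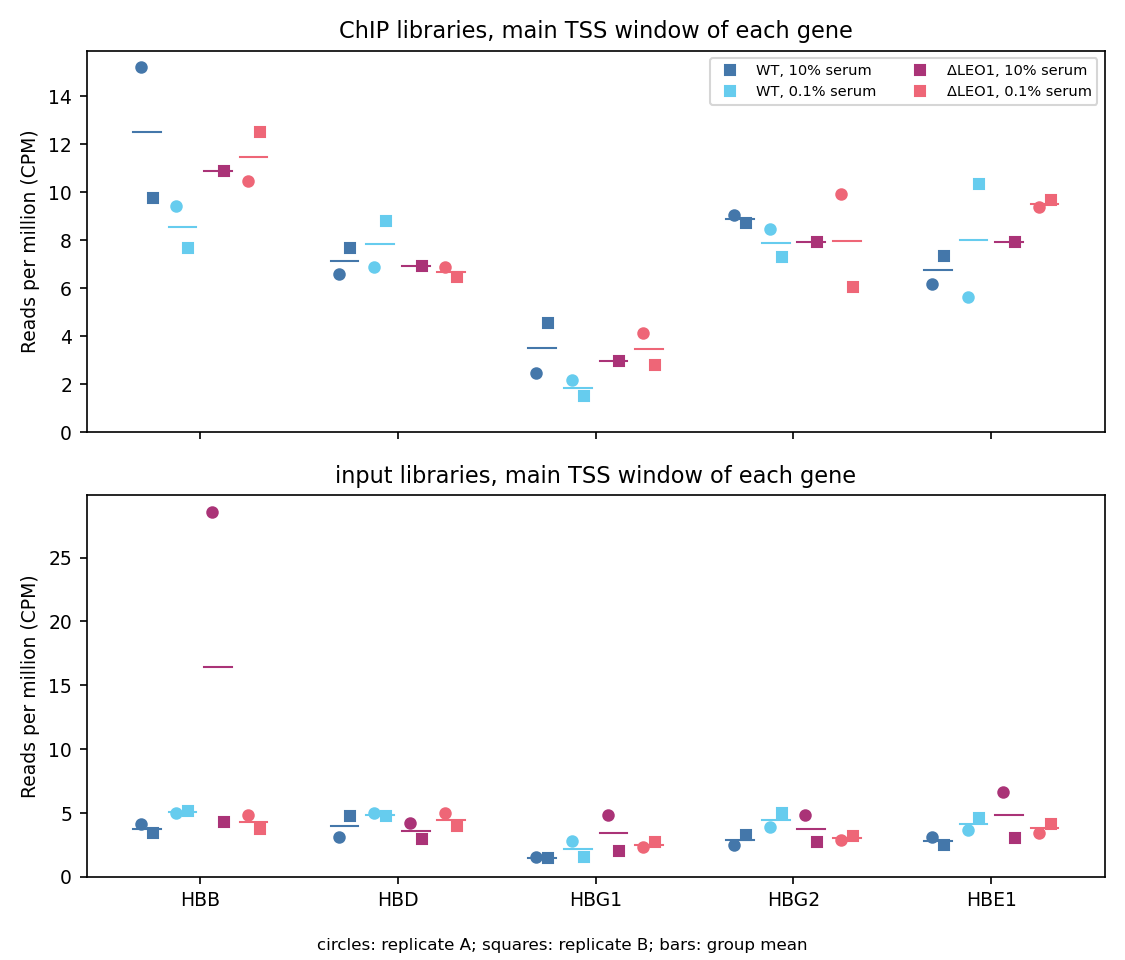
CPM at the main TSS window of each beta-globin gene in the 7 ChIP libraries (top) and the 8 inputs (bottom), coloured by genotype and serum, with circles for replicate A, squares for replicate B and bars for the group mean. HBG1 is the lowest gene in ChIP, and the HBB input of ΔLEO1 library A in 10% serum stands at 28.5 CPM above all other inputs.

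The first comparison was ChIP over input within a genotype and serum, which gives the level of the mark relative to the typical TSS window. In wild type cells in 10% serum, the HBB main window stood 3.32-fold over input by the ratio of mean CPM. The fitted log2 difference was 1.64 (SE 0.29), given with no test because the wild type inputs in 10% serum had been used to choose HBB. The other 4 genes were higher in ChIP than in input, relative to the typical TSS window, in edgeR's quasi-likelihood F-test, with p-values adjusted by Benjamini-Hochberg over all windows. The log2 difference was 1.45 at HBG2 (SE 0.30, adjusted p = 1.15e-05), 1.19 at HBE1 (SE 0.32, adjusted p = 0.000844), 1.07 at HBG1 (SE 0.42, adjusted p = 0.0225) and 0.75 at HBD (SE 0.30, adjusted p = 0.0229).

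Of the 12 distinct windows outside HBB, 11 were called higher and 0 lower in this comparison, in 6 of 6 stretches, where 29.5% of all 237580 windows tested were called higher and 29.1% lower. Their median log2 difference was 1.07, against -0.04 over all windows. The 1 window that was not called was the second HBD window, at chr11:5234370-5236370, with a log2 difference of 0.18 (SE 0.33, adjusted p = 0.652). Without wild type ChIP library B, 3 of the 12 were called higher, and DESeq2 called 3. With peak-table totals as library sizes, the median of all windows fell to -2.18 and all 12 were called lower than input, since that scale sets ChIP against peak regions.

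In wild type cells in 0.1% serum, 10 of the 17 distinct windows were called higher and 0 lower, in 5 of 8 stretches, against 25.7% of all windows higher and 28.0% lower. HBE1 was higher by 0.86 on the log2 scale (SE 0.29, adjusted p = 0.00852 in edgeR), HBG2 by 0.78 (SE 0.28, adjusted p = 0.015), HBB by 0.72 (SE 0.29, adjusted p = 0.0298) and HBD by 0.64 (SE 0.28, adjusted p = 0.0454). HBG1 gave -0.17 (SE 0.45, adjusted p = 0.76). The median of the 17 windows was 0.65, against -0.02 over all windows. The count rested on single libraries, with 3 and 2 windows called without ChIP library A or B and 3 and 5 without input library A or B, and DESeq2 called 1. With peak-table totals, where the median of all windows was -1.92, all 17 were called lower.

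In ΔLEO1 cells in 0.1% serum, 11 of the 17 windows were called higher and 0 lower, in 5 of 8 stretches, against 27.0% of all windows higher and 28.7% lower. HBB was higher by 1.36 on the log2 scale (SE 0.28, adjusted p = 2.03e-05 in edgeR), HBG2 by 1.34 (SE 0.30, adjusted p = 5.69e-05) and HBE1 by 1.21 (SE 0.28, adjusted p = 0.0001). HBD gave 0.57 (SE 0.29, adjusted p = 0.0827) and HBG1 0.43 (SE 0.38, adjusted p = 0.336). The median log2 difference of the 17 windows was 0.76, against 0.01 over all windows. Without ChIP library A, 6 were called, and DESeq2 called 5. With peak-table totals, where the median of all windows was -1.63, 9 were called lower.

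In ΔLEO1 cells in 10% serum, 1 ChIP library was usable, and values are given with no test. ChIP library B over the mean of both inputs was 0.664-fold at HBB, and over input B alone it was 2.54-fold. HBD stood at 1.94-fold over both inputs and 2.36-fold over input B, HBG2 at 2.11-fold and 2.92-fold, HBE1 at 1.64-fold and 2.6-fold, and HBG1 at 0.869-fold and 1.46-fold. Whether HBB lay above or below input in this group thus turned on input library A, and so did the side of HBG1.

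Along the chromosome, the ratio of ChIP to input was uneven within the cluster, on the scale of the typical TSS window. The HBB window upstream of the gene, chr11:5228395-5230395, gave log2 differences of 0.27, 0.21 and 0.20 in wild type 10% serum, wild type 0.1% serum and ΔLEO1 0.1% serum, below those of the HBB main window next to it, and the difference between both windows was not tested. The HBD window at chr11:5242657-5244657 overlaps windows of HBBP1, a beta-globin pseudogene, and gave 1.18 (SE 0.32, adjusted p = 0.000711), 1.26 (SE 0.30, adjusted p = 0.000215) and 1.21 (SE 0.27, adjusted p = 8.06e-05). It was called higher by edgeR in all 3 groups. The windows of HBBP1 itself gave 1.08, 1.17 and 1.16 and were called higher in all 3 groups as well.

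Other neighbours were less even, with values in the same order of groups. BGLT3, a noncoding RNA gene next to HBG1, gave 1.00 (adjusted p = 0.00567), 0.57 (adjusted p = 0.0797) and 0.46 (adjusted p = 0.170) by edgeR, and was called higher in wild type 10% serum alone. The olfactory receptor gene OR51V1 gave 0.76 (adjusted p = 0.0256), 0.51 (adjusted p = 0.114) and 1.14 (adjusted p = 0.000342) by edgeR, and was called higher in wild type 10% serum and ΔLEO1 0.1% serum. The ChIP-over-input difference between the genotypes in 0.1% serum was -0.11 at BGLT3 (adjusted p = 0.978) and 0.62 at OR51V1 (adjusted p = 0.752) by edgeR, neither of them called. The olfactory receptor pseudogene OR51AB1P lay at -0.013, -0.13 and -0.38 and was called in none of the 3 groups, with adjusted p from 0.325 to 0.978 by edgeR. The windows without a symbol at chr11:5223639-5225639 and chr11:5224461-5226461 lay between 0.30 and 0.70 and were not called, with adjusted p from 0.0529 to 0.446 by edgeR. The window without a symbol at chr11:5253783-5255783 overlaps the HBG2 main window and is no separate measurement.

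Beyond the main cluster, the 3 windows named HBE1 or HBG2 that start at 5504604, 5504605 and 5504652 lie 233.659 kb from the HBE1 window and belong to transcripts with a distant start. The first of them was higher than input by 0.95 on the log2 scale in wild type 10% serum (SE 0.32, adjusted p = 0.0071 in edgeR) and by 0.76 in ΔLEO1 0.1% serum (SE 0.31, adjusted p = 0.0292). In wild type 0.1% serum it gave 0.48 (SE 0.31, adjusted p = 0.186).

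There were 14 other windows in the region, 12 of them distinct. On the HBE1 side, OR51B4, an olfactory receptor gene, was higher than input by 1.26 (SE 0.27, adjusted p = 3.53e-05), 0.75 (SE 0.28, adjusted p = 0.0177) and 1.35 (SE 0.27, adjusted p = 1.03e-05) in the same 3 groups. On the HBB side, a window with no gene symbol, chr11:5204041-5206041, went the other way. It held 0 and 2 ChIP reads in wild type 10% serum, 3 and 3 in wild type 0.1% serum, 1 in ΔLEO1 10% serum and 2 and 1 in ΔLEO1 0.1% serum, against 12 to 31 reads in each input. Its log2 difference was -2.39 (SE 0.56, adjusted p = 9.85e-05), -1.47 (SE 0.47, adjusted p = 0.00558) and -1.85 (SE 0.53, adjusted p = 0.0018), the lowest of the region in all 3 groups together with 2 windows that overlap it.

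**Figure D2:**
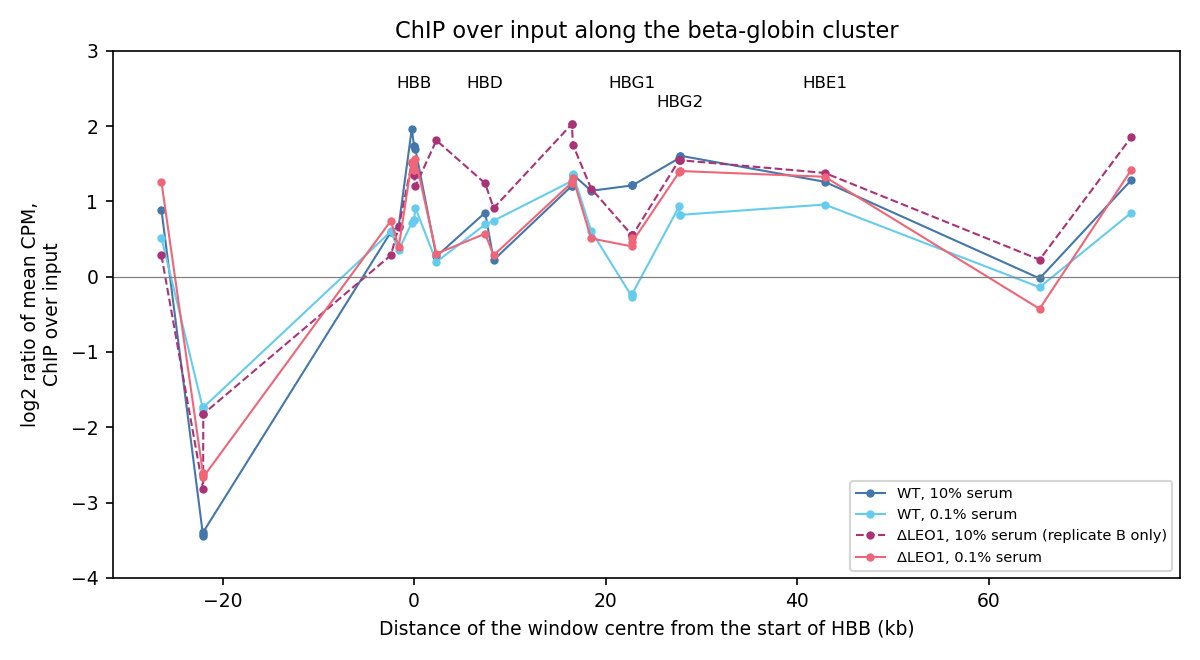
Log2 ratio of mean CPM, ChIP over input, at the distinct windows of the cluster (dots, joined by lines) against distance from the start of HBB in kb, for the 4 groups, with ΔLEO1 10% serum drawn from replicate B of ChIP and input alone. On the scale of the typical TSS window (TMM), the globin windows lie mostly above 0 and a window on the HBB side drops to -3.45 in wild type 10% serum, whereas with peak-table totals the fitted values at the globin genes fall below 0.

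The peak region, chr11:5294372-5294961, is 589 bp wide, is annotated as a long terminal repeat of the LTR12C family (ERV1) and lies 7280 bp from the start of OR51B4. It held 18 and 17 ChIP reads in wild type 10% serum, 24 and 21 in wild type 0.1% serum, 15 in ΔLEO1 10% serum and 20 and 15 in ΔLEO1 0.1% serum. The inputs held 11 and 15, 8 and 6, 5 and 13, and 7 and 9 reads in the same order of groups. Compared with the typical peak, its log2 difference of ChIP over input was -0.39 (SE 0.39, adjusted p = 0.858), 0.73 (SE 0.42, adjusted p = 0.709) and 0.47 (SE 0.42, adjusted p = 0.851) in wild type 10%, wild type 0.1% and ΔLEO1 0.1% serum. It was not called by edgeR in these comparisons, where 0.0932%, 0.0808% and 0.0249% of all peaks were called in either direction. With TSS-table totals as library sizes the median of all peaks moved to 2.0, 1.81 and 1.52, and the values of this peak to 1.61, 2.49 and 1.96.

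The next question was what the loss of LEO1 does to the mark in quiescent cells. At the beta-globin genes, the comparison of ΔLEO1 with wild type ChIP in 0.1% serum gave no call at any of the 17 windows in edgeR, and 0 at an unadjusted p under 0.05, where 0.347% of all 159524 windows tested were called in either direction. DESeq2 called 0 of them and 0 over all windows. The log2 difference at the main windows was 0.38 at HBB (95% interval -0.12 to 0.88), -0.18 at HBD (-0.75 to 0.39), 0.73 at HBG1 (-0.13 to 1.60), 0.08 at HBG2 (-0.46 to 0.62) and 0.28 at HBE1 (-0.25 to 0.81). The 17 windows, which share reads within 8 stretches, ran from -0.29 to 0.73 with a median of 0.28, against -0.01 over all windows. The HBD and HBG2 values are near 0 and the sign at HBG2, HBE1 or HBD changed under some alternatives given in the closing section.

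The same ChIP libraries were then set against their inputs. For the ChIP-over-input difference between the genotypes in 0.1% serum, 0 of the 17 windows were called by edgeR, 0 at an unadjusted p under 0.05 and 0 by DESeq2, where 0.0114% of all windows were called. The difference of the log2 differences was 0.64 at HBB (95% interval -0.15 to 1.42), -0.06 at HBD (-0.91 to 0.79), 0.61 at HBG1 (-0.57 to 1.78), 0.56 at HBG2 (-0.22 to 1.33) and 0.35 at HBE1 (-0.43 to 1.14). The intervals at HBB, HBG1, HBG2 and HBE1 include both 0 and a difference of more than 1 on the log2 scale, so that these libraries leave a doubling undecided.

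Quiescence was examined in wild type cells, as ChIP in 0.1% against 10% serum. No window of the 17 was called by edgeR, 0 had an unadjusted p under 0.05 and DESeq2 called 0, where 0.27% of all windows were called. The log2 difference was -0.43 at HBB (95% interval -0.93 to 0.08), 0.15 at HBD (-0.43 to 0.73), -0.67 at HBG1 (-1.56 to 0.22), -0.10 at HBG2 (-0.65 to 0.45) and 0.22 at HBE1 (-0.36 to 0.81). The 17 windows had a median of -0.11, against 0.01 over all windows. This comparison shares the wild type 0.1% serum ChIP libraries with the genotype comparison.

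Input DNA alone was compared between ΔLEO1 and wild type in 0.1% serum, a pair of groups that had no part in the choice of the genes. edgeR called 0 of 17 windows, 0 at an unadjusted p under 0.05, and 0.0% of all 238006 windows, with 12688 at an unadjusted p under 0.05, and DESeq2 called 0. HBB gave -0.26 (95% interval -0.93 to 0.41), HBD -0.14 (-0.65 to 0.37), HBG1 0.20 (-0.47 to 0.87), HBG2 -0.51 (-1.07 to 0.05) and HBE1 -0.08 (-0.63 to 0.47).

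**Figure D3:**
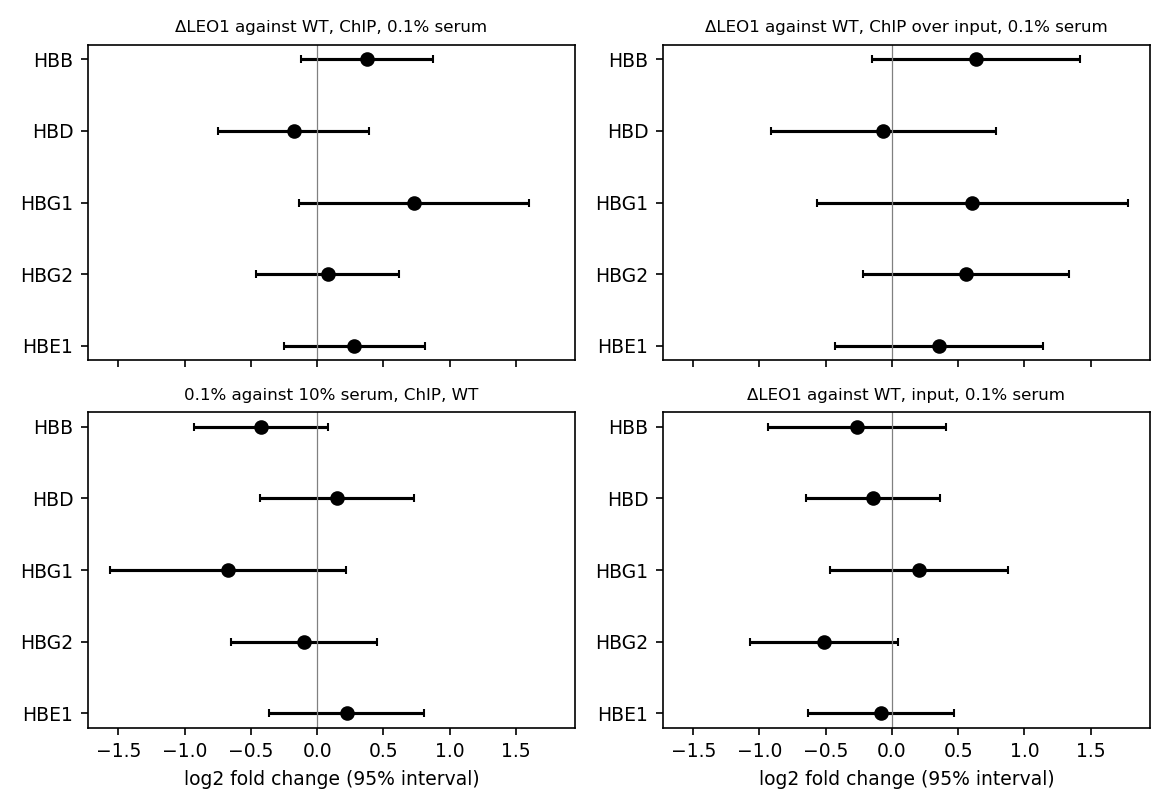
Log2 fold change (dots) with its 95% interval (bars) at the main window of each beta-globin gene in 4 comparisons, from edgeR. Every interval includes 0, and those of HBG1 are the widest in both ChIP panels and in the ChIP-over-input panel.

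The inputs at HBB were uneven. The main window held 26 and 33 reads in the wild type inputs A and B in 10% serum, 37 and 37 in wild type 0.1% serum, 27 and 33 in ΔLEO1 0.1% serum, and 95 and 38 in ΔLEO1 10% serum. ΔLEO1 input A in 10% serum thus held the most reads at HBB although it was the shallowest input, and the other 7 lay close together. Scaled over the 8 inputs alone, it held 29.7 CPM (95% exact Poisson interval 24.1 to 36.4, counting error only), against 3.58 to 5.37 CPM in the other 7, with a median of 4.48. This was 6.64-fold over that median (5.37 to 8.12) and 5.54-fold over the highest of the other 7. How duplicate and multi-mapped reads were treated is not given in the sources used here, so the 95 reads may include copies of the same fragment, and the interval then understates the error. These values are a description, since this input contrast was what chose the gene.

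The excess was at HBB and not spread evenly over the cluster. In the same library, the 25 distinct windows of the globin genes and their neighbours outside the 4 overlapping HBB windows stood at 0.619-fold to 2.36-fold of the median of the other inputs, with a median of 1.08, and the counting interval included 1 in 21 of them. HBG1 was at 2.36-fold (1.35 to 3.84), HBE1 at 1.93-fold (1.21 to 2.93), HBG2 at 1.52-fold (0.869 to 2.47) and HBD at 0.888-fold (0.485 to 1.49). The upstream HBB window, which does not overlap the main one, was at 1.08-fold (0.560 to 1.89). Some of these windows overlap and share reads, as at HBG1. How such values are spread over all windows in this library was not worked out. No trait of the cluster is thus read from them.

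The overlap of windows narrowed the position of the extra reads. The window chr11:5225823-5227823 held 95 reads in ΔLEO1 input A in 10% serum, and the overlapping window chr11:5224461-5226461 held 20, so that at least 75 reads touched the 1362 bp from chr11:5226461 to 5227823. Of this stretch, 610 bp lie inside HBB and 752 bp upstream of its start, which is exon, intron and promoter sequence. By the same bound, at least 0 to 11 reads touched it in the other 7 inputs and 8 to 28 in the 7 ChIP libraries.

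Reads in the HBB main window were also set against the sum of the windows on each side, chr11:5223639-5225639 and chr11:5228395-5230395, which removes library depth. ΔLEO1 input A in 10% serum gave a ratio of 3.65. The other 7 inputs gave 0.541 to 0.771, with a median of 0.688, and the 7 ChIP libraries 0.857 to 2.47, with a median of 1.04. All 7 ChIP libraries lay above these 7 inputs and below ΔLEO1 input A. The ratio of ΔLEO1 input A reuses the reads that chose HBB, so it had to stand out and is a description only. The highest ChIP ratio was in wild type library A in 10% serum, and ΔLEO1 ChIP library B in 10% serum gave 1.00, with 22 reads at HBB. Since the ChIP library A of ΔLEO1 in 10% serum held 0 reads here, the uneven input has no ChIP library of its own replicate to be set against.

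**Figure D4:**
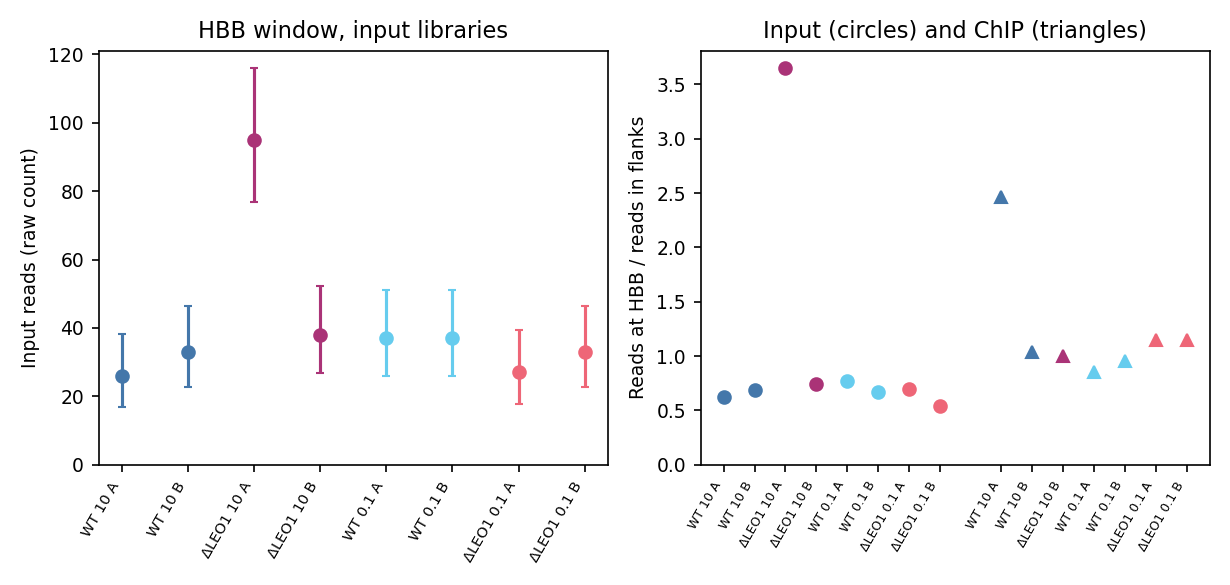
Left, raw input reads at the HBB main window in the 8 inputs with 95% exact Poisson intervals. Right, the ratio of HBB reads to the reads of the windows on each side for inputs (circles) and ChIP libraries (triangles). ΔLEO1 input A in 10% serum stands at 95 reads and a ratio of 3.65, above every other library in both panels.

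Over all genes, 589 distinct windows held at least 30 reads in ΔLEO1 input A in 10% serum, a rule that takes windows that are high in a shallow library. HBB ranked first among them by the ratio to the highest of the other inputs. This rank is drawn from the reads that chose HBB and is a description only. Of the 589, 86 (14.6%) were over 2-fold. The next genes were MIR4302 and OLR1 at 2.57-fold, LRRC28 at 2.52-fold, CCDC186 at 2.50-fold and MDM2 at 2.47-fold. In the other 7 inputs together, 1 window was over 2-fold by the same rule. There the cut of 30 reads admitted 22215 to 158994 windows per library. It takes another share of windows at each depth, so these counts cannot be compared between libraries.

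The windows whose log2 CPM followed HBB most closely over the 8 inputs were those of NLN (Pearson's r 0.992, Spearman's rho 0.857), ATG13 (0.989 and 0.905), PAICSP3 (0.986 and 0.690), ERGIC2 (0.983 and 1.00) and RTCA (0.980 and 0.976). They were taken from 84279 windows, of which 563 had r over 0.9, and the 8 points share library depth, with ΔLEO1 input A in 10% serum far from the others. None of the 5 held more than 33 reads in that library, where HBB held 95.

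Leaving ΔLEO1 input A in 10% serum out of the fit, an alternative chosen after the data were seen, changed little at the cluster. HBB ChIP over input was then 1.58 in wild type 10% serum, 0.77 in wild type 0.1% serum (adjusted p = 0.00783 in edgeR) and 1.41 in ΔLEO1 0.1% serum (adjusted p = 2.93e-07). HBD in ΔLEO1 0.1% serum then passed the threshold, at 0.63 (adjusted p = 0.0473). No window of the cluster gained a call in a genotype or serum comparison. Over all windows, some were then called between the inputs of 0.1% serum, where none had been in the main fit.

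Other genes of the red cell programme were taken from lists and described by their main windows, on the same scale and against the same shares of all windows called. In the alpha-globin cluster, 1, 1 and 0 of 5 genes were called higher and 0 lower in wild type 10%, wild type 0.1% and ΔLEO1 0.1% serum. Of all windows, 29.5%, 25.7% and 27.0% were called higher and 29.1%, 28.0% and 28.7% lower. The counts called higher do not exceed these shares. The gene called was HBA2, at 1.58 (SE 0.52, adjusted p = 0.005 in edgeR) and 1.08 (SE 0.46, adjusted p = 0.040), and its copy HBA1 gave 0.14 and -0.20, with the same uncertainty as for the gamma genes. Median log2 differences of the list were 0.03, 0.16 and -0.59.

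Of 7 red cell genes, 3, 2 and 2 were called higher and 0 lower, with medians of 0.55, 0.33 and 0.49, where 29.5%, 25.7% and 27.0% of all windows were called higher. The counts of 2 of 7 lie near that share. AHSP, which encodes a chaperone of the alpha chain, was higher by 1.18, 1.05 and 1.28 in the 3 groups. HEMGN, an erythroid nuclear factor, was higher by 1.13, 1.02 and 0.71. The lowest gene of the list in each group lay at -0.63, -0.66 and -0.50 and was not called.

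Of 16 regulators of globin genes, 15 were tested, and 2, 2 and 2 were called higher and 7, 5 and 6 lower, with medians of -0.82, -0.52 and -0.23. Of all windows, 29.5%, 25.7% and 27.0% were called higher and 29.1%, 28.0% and 28.7% lower, and the 5 of 15 lower in wild type 0.1% serum lie near that share. Those called higher were TAL1 and LMO2, transcription factors of blood cells, at 1.00, 0.97 and 0.80 and at 0.99, 1.04 and 1.14. Other transcription factors of the list went the other way or were not called. MYB, at -2.48, -1.96 and -1.75, and SOX6, at -0.99, -1.94 and -1.18, were called lower in every group, and GATA1 and KLF1 in none. LDB1, a widely expressed partner of TAL1 and LMO2, was at -2.19, -2.26 and -2.42, and EHMT1, an H3K9 methyltransferase, at -1.65, -1.72 and -1.44. BCL11A, a repressor of the gamma genes, gave -0.96, -0.63 and -0.14 and was not called.

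Fibroblast markers were described as well, but their values cannot check the labelled cell type. In wild type 10% serum, 7 of 15 regulators of globin genes were also called lower, and 2 higher, so a low value does not single out fibroblasts. Of the 9 fibroblast markers, 7, 8 and 8 were called lower than input and 0 higher. Their medians were -2.11, -1.66 and -1.97, where 29.1%, 28.0% and 28.7% of all windows were called lower. The collagen gene COL1A1 was at -2.11, -1.66 and -1.91 and vimentin (VIM) at -2.23, -1.45 and -2.47. THY1, which encodes a surface protein, gave -0.04, 0.40 and 0.44 and was not called. No gene of these 4 lists was called in the genotype, serum or input comparisons, and 2 alpha-globin genes, 7 regulators, 6 red cell genes and 1 fibroblast marker passed the filter for the ChIP libraries alone.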

How the data were processed

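ChIP and input libraries of BJ-5ta fibroblasts were counted by the authors, who deposited raw read counts, whole numbers without scaling, per TSS window and per peak region. Per the methods of the study, counting used csaw. The submitters' processing notes list bcl2fastq 2.20.0.422, STAR 2.7.10a, HOMER and the builds hg38 and dm6, without roles. The peak caller and the treatment of duplicate and multi-mapped reads are not given in the sources used here. Spike-in scaling was not used, so values are relative to the typical window or peak and do not measure a global change.

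Counts were tested with edgeR 4.0.16 in R 4.3.3 (two-sided quasi-likelihood F-test, TMM, filterByExpr with a minimum count of 10, prior count of 2, Benjamini-Hochberg adjustment over everything tested, threshold 0.05), with 1 coefficient per group. Fits held 15 libraries for ChIP over input, 7 ChIP libraries for ChIP and 8 for inputs. SEs were derived from the F statistic. The code was tested on simulated counts. For ΔLEO1 against wild type ChIP in 0.1% serum, 3.5% of windows with a simulated log2 change of 1 were recovered. The share was 1% for ChIP over input in wild type 0.1% serum and 13.5% for ΔLEO1 against wild type input in 0.1% serum. At a log2 change of 2, the shares were 79%, 81% and 99%. For the genotype comparisons of ChIP and of input, most doublings would thus get no call. Each simulation changed 200 windows. In the real ChIP over input of wild type 0.1% serum, 61027 windows were called higher and 66431 lower. The adjusted threshold is less strict with so many calls, so the simulated 1% does not carry over to ChIP over input. All 17 distinct windows passed the filter. Exact Poisson intervals cover counting error only. DESeq2 1.42.0 and other alternatives are given in the closing section.

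The genes named are the 5 members with all their windows, 1 main window each (the one centred nearest to the gene start), every neighbour in the region, the 5 windows most like HBB, the 5 largest excesses and the lists. The members, lists and tests were chosen with earlier results of these data known. Single values of 2 red cell genes are not reported here.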

Additional observations from a re-analysis of the deposited data

Results flagged for a closer look

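The HBB window of the ΔLEO1 input library A in 10% serum drew attention because input DNA, which is outside the main ChIP measurement, held 95 reads there, above the level in each of the other 7 inputs. The cause was not tested.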

How the results depend on the processing

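Relative to peak-table totals, which move the median of all TSS windows to -2.18, -1.92 and -1.63 in the 3 ChIP-over-input comparisons, calls turned lower at 12 of 12 windows in wild type 10% serum, 17 of 17 in wild type 0.1% serum and 9 of 17 in ΔLEO1 0.1% serum. On that scale the log2 differences of HBB, HBD, HBG1, HBG2 and HBE1 were -0.66, -1.49, -0.98, -0.79 and -1.03 in wild type 10% serum, and in ΔLEO1 0.1% serum they were -0.36, -1.12, -1.17, -0.35 and -0.49. In wild type 0.1% serum HBB, HBD, HBG2 and HBE1 were at -1.29, -1.36, -1.22 and -1.13, and the LTR12C peak was at 1.61 in wild type 10% serum with TSS-table totals. HBD turned to 0.24 in the ChIP-over-input difference between genotypes and to 0.10 in ChIP between genotypes, HBG2 turned to 0.046 between sera, and the HBB input excess was 4.95-fold. Without TMM, 7 windows in wild type 10% serum and 5 in wild type 0.1% serum were called. DESeq2 called 3, 1 and 5 windows in the 3 ChIP-over-input comparisons. With ΔLEO1 ChIP library A in 10% serum included, 5 were called in wild type 0.1% serum. Leaving out 1 library gave 3 to 11 windows in wild type 10% serum, 2 to 10 in wild type 0.1% serum and 6 to 12 in ΔLEO1 0.1% serum. It moved HBG1 in wild type 0.1% serum from -0.49 to 0.24. Between genotypes it moved ChIP at HBG2 from -0.31 to 0.30, at HBE1 from -0.11 to 0.70 and at the peak from -0.18 to 0.047, and ChIP over input at HBD from -0.25 to 0.091 and at HBE1 from -0.048 to 0.78. Between sera it moved HBD from -0.016 to 0.32 and HBE1 from -0.21 to 0.61, and in the inputs of 0.1% serum HBD from -0.28 to 0.050, HBE1 from -0.25 to 0.080 and HBG1 from -0.13 to 0.65. None of these last values was called. The cause of these changes was not tested. The replicate letters were entered as a replicate block, which left 11, 10 and 11 windows called in the 3 ChIP-over-input comparisons and 0 in the other 4, and changed no other call. Removing the filter on low counts, or repeated windows, changed no call at a main window. A main window held 4 to 95 reads in a library, which limits the precision of these values.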
